A study of Mus musculus with 8 samples.

Results

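The genes described here encode the integrin subunits that build receptors for the arginine-glycine-aspartate (RGD) tripeptide: the alpha chains Itgav, Itga5 and Itga8 and the beta chains Itgb1, Itgb3, Itgb5, Itgb6 and Itgb8. They were picked by name, with earlier results of these data known, as 8 of the 18824 genes in the deposited count table. All 8 passed the filter on low counts that left 14746 genes for testing. Their levels were compared in bulk RNA sequencing of mouse lung between wild-type mice (WT_BLM, 4 libraries) and Slc15a3-/- mice (KO_BLM, also 4). All mice, aged 8 weeks, had been given bleomycin, a drug that injures lung and leaves fibrosis, into the trachea (2 mg/kg in 50 µl saline), and were killed on day 21. The series asks what SLC15A3, an endolysosomal transporter of histidine and peptides, does in pulmonary fibrosis. Mice given saline alone are not analysed here, and the values say how the genotypes differ after bleomycin and not how bleomycin acts. Strain, sex, the nature of the deleted allele and whether each library is a separate animal are not given in the labels, and p-values measure only the spread between these libraries, which may be technical.

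Integrins are heterodimers of an alpha and a beta chain that join the matrix outside a cell to the actin cytoskeleton. The alpha-v chain pairs with beta-1, beta-3, beta-5, beta-6 or beta-8, while alpha-5 and alpha-8 pair with beta-1 alone. Several of these receptors, above all those with beta-6 or beta-8, bind an RGD site in the latency peptide that wraps TGF-beta and so free the active cytokine, a step known to drive fibrosis in lung. The receptor of alpha-5 and beta-1 is the classical fibronectin receptor, and that of alpha-8 and beta-1 binds nephronectin and is found on mesenchymal cells.

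Of the 8 genes, 6 were lower in KO_BLM (Itga5, Itgb3, Itgb8, Itgav, Itgb5 and Itgb1), Itga8 was higher, and Itgb6 did not pass the test. The falls ran from 3.25-fold in Itga5 to 1.36-fold in Itgb1, and Itga8 rose 2.29-fold. In all, 7 of 8 were called by edgeR's quasi-likelihood test at a Benjamini-Hochberg adjusted p of 0.05, against 41.5% of all 14746 tested genes, of which 20.7% were higher and 20.8% lower. The 8 genes had a median log2 fold change of −0.74, against 0.003 over all tested genes. For the 7 called genes the libraries of the groups did not overlap, against 40.9% of all tested genes. Since the members were chosen with earlier results known, these contrasts with all tested genes are only a description. A level in bulk tissue cannot tell fewer cells of a type from less RNA per cell.

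**Figure D1:**
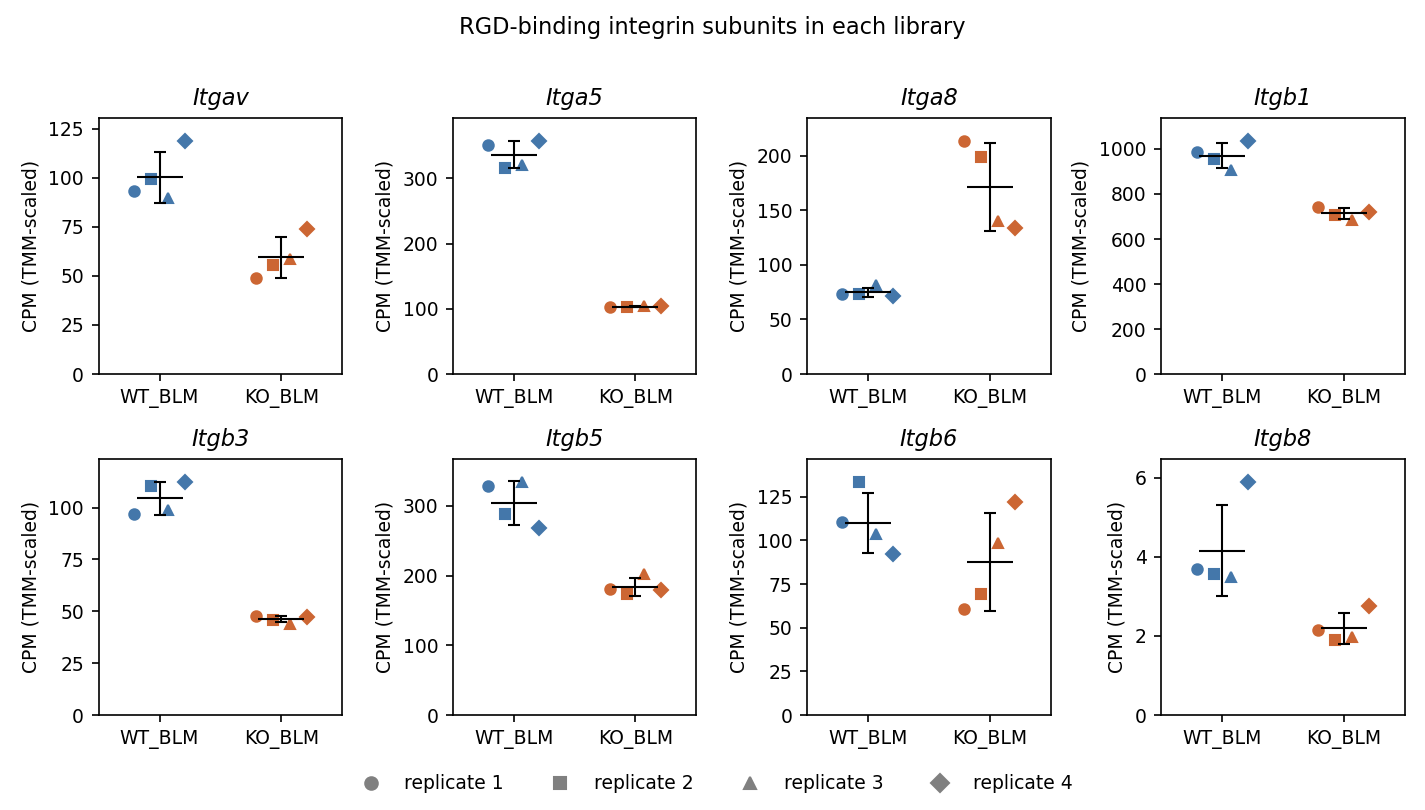
Level of each of the 8 integrin genes in every library, in CPM (the count over the TMM-scaled library total), by group; marker shapes give the replicate number and black bars the mean and SD of 4 libraries. The groups are apart in 7 panels, with Itga8 alone higher in KO_BLM, and overlap for Itgb6.

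A wild-type library held 18878835 to 20180831 counts and a knockout library 17627999 to 18471445. Slc15a3 itself was at 51.3 ± 4.11 CPM (SD, n = 4) in WT_BLM and 0.610 ± 0.303 CPM in KO_BLM, as the labels say. Markers of surfactant-producing alveolar type 2 cells, which mark lung, summed to 8766 to 12794 CPM in WT_BLM and 22670 to 35200 CPM in KO_BLM, with none at 0. The first principal component held 66.5% of the variance and separated the genotypes.

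The 2 stretches of DNA are shown because they lie just before the start of the member that fell most, Itga5, and the one that rose, Itga8. Both are from RefSeq on GRCm38.p6, the assembly of the mm10 build that the submitters' processing notes name. They run 5′ to 3′ on the minus strand, from chr15:103366792-103367041 and chr2:12301986-12302194, and hold only bases outside the annotated genes. Capitals mark GC boxes.
Itga5: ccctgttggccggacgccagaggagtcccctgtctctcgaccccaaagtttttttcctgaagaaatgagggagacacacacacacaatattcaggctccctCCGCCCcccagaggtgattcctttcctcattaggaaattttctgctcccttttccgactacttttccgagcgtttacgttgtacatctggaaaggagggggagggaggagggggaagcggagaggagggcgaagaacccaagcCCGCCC
Itga8: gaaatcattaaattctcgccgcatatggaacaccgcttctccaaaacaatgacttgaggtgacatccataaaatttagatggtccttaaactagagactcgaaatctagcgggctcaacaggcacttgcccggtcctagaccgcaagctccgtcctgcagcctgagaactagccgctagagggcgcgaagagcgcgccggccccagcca
RefSeq windows from 250 bases before to 50 after the start matched 7 of the 8 members (8 windows, since Itgb6 has 2). They were searched on both strands for the GC box GGGCGG, the SMAD motif CAGAC, the TEAD motif GGAATG and the AP-1 motif TGANTCA, none of which contains another. The GC box was in the windows of Itga5 (2 matches), Itgb5 (3), Itgav (1) and Itgb1 (1), against 35.7% of all 32851 windows, and not in those of Itga8, Itgb6 or Itgb8. CAGAC was in the windows of Itga5 (2), Itgb1 (3), Itgb8 (1) and 1 of Itgb6, against 49.6% of windows. GGAATG was found only in that of Itgb1, against 14.7%, and TGANTCA in none of the 8, against 7.81%. The Itgav window (chr2:83724147-83724446) and 1 Itgb6 window (chr2:60673644-60673943) lie within the annotated genes and not at the locus starts given below. A match describes the letters of a window and is no sign of binding.

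Among the alpha chains, Itga5 gave the sharpest separation. Its locus (NCBI Gene 16402) is 103344286 to 103366791 of chromosome 15 (RefSeq, GRCm38.p6, as for the other members). Its level was 352, 316, 319.9 and 357 CPM in wild-type libraries 1 to 4 and 102.6, 102.2, 104.5 and 104.2 CPM in knockout libraries 1 to 4. The 4 knockout libraries were nearly level, and every wild-type library lay far above them. The means were 336 ± 21.2 and 103 ± 1.14 CPM (SD, n = 4), a log2 change of −1.70 (standard error 0.08; adjusted p = 1.35e-06, edgeR).

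Itgav, the chain shared by all receptors of the alpha-v class, fell less. On chromosome 2 it spans 83722303 to 83806917 (NCBI Gene 16410). It was at 93.2, 99.1, 89.6 and 119 CPM in wild-type libraries 1 to 4, and at 49.1, 55.7, 58.6 and 74.0 CPM in knockout libraries 1 to 4. Replicate 4 was the highest library of each group, and the groups stayed apart. The fall was 1.69-fold, from 100.2 ± 12.9 to 59.4 ± 10.5 CPM (SD, n = 4), with log2 −0.75 ± 0.14 (SE) for the change and an edgeR adjusted p of 0.00221.

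Itga8 was the one member that rose. It maps to chromosome 2, 12106632 to 12301985 (NCBI Gene 241226). It was at 73.1, 73.6, 81.2 and 71.4 CPM in wild-type libraries 1 to 4 and at 213, 198, 140.5 and 133 CPM in knockout libraries 1 to 4. The wild-type libraries lay close together, whereas the knockout libraries were uneven, with replicates 1 and 2 above 3 and 4. The means were 74.8 ± 4.34 and 171 ± 40.3 CPM (SD, n = 4), a log2 change of 1.20 (standard error 0.15; adjusted p = 0.000382, edgeR). In GENCODE M21, exons of the antisense gene E030013I19Rik overlap those of Itga8 and exons of Gm13684 those of Itgav on the opposite strand. Neither was analysed here, and how strand was handled in counting is not given in the sources used here; reads of these pairs may not have been told apart.

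Of the beta chains, Itgb1, the common partner of many alpha chains, was the most abundant and changed least among those called. Its locus (NCBI Gene 16412) is 128685654 to 128733579 of chromosome 8. It was at 987, 956, 906 and 1035 CPM in wild-type libraries 1 to 4 and at 744, 706, 687 and 722 CPM in knockout libraries 1 to 4. All knockout libraries lay below all wild-type libraries, and the fall was 1.36-fold, with log2 −0.44 ± 0.08 (SE) for the change and an edgeR adjusted p of 0.00239.

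Itgb3, the beta chain of the vitronectin receptor and, with Itga2b, of the platelet fibrinogen receptor, fell 2.26-fold. On chromosome 11 it spans 104608000 to 104670476 (NCBI Gene 16416). It was at 96.7, 110.4, 98.6 and 112 CPM in wild-type libraries 1 to 4 and at 47.7, 46.0, 44.1 and 47.4 CPM in knockout libraries 1 to 4. Both groups were tight at 104.5 ± 7.98 and 46.3 ± 1.64 CPM (n = 4, SD), and the log2 change was −1.17 (standard error 0.08; adjusted p = 9.84e-06, edgeR). Its platelet partner Itga2b had a log2 fold change of 0.29 ± 0.11 (SE; adjusted p = 0.0665 by edgeR) and was called higher with library totals alone (adjusted p = 0.0188), by limma-voom (0.00932), by limma on FPKM (0.0131 to 0.0230) and without KO_BLM replicate 4 (0.0209). Of 8 platelet and megakaryocyte markers 3 rose (Ppbp, Gp6 and Gp9) and 2 fell (Pf4 and Gp1bb), with a summed level of 47.0 to 51.4 CPM in WT_BLM and 55.4 to 71.0 CPM in KO_BLM. Over all tested genes 20.7% were higher and 20.8% lower, so the 2 that fell are about that share. The part of platelets in the level of Itgb3 was not tested.

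Itgb5, also a partner of alpha-v and a vitronectin receptor chain, fell 1.66-fold. It maps to chromosome 16, 33829665 to 33949338 (NCBI Gene 16419). It was at 328, 288, 334 and 269 CPM in wild-type libraries 1 to 4 and at 180.4, 174, 203 and 179 CPM in knockout libraries 1 to 4. The groups did not overlap, at 305 ± 31.6 and 184 ± 12.9 CPM (SD, n = 4), a log2 change of −0.73 (standard error 0.10; adjusted p = 0.000467, edgeR).

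Itgb6 and Itgb8 encode the chains best known for freeing TGF-beta. In the gene annotation of the deposited table, the term for regulation of TGF-beta activation was attached to Itgav, Itgb6 and Itgb8 and to none of the other 5. Itgb6, a chain known from epithelial cells, lies on chromosome 2 from 60598292 to 60722603 (NCBI Gene 16420). It was at 110.4, 133, 103.5 and 92.3 CPM in wild-type libraries 1 to 4 and at 61.0, 69.1, 98.5 and 122 CPM in knockout libraries 1 to 4. KO_BLM replicates 1 and 2 lay below every wild-type library, and replicates 3 and 4 within the wild-type range. The group means were 109.9 ± 17.3 and 87.6 ± 27.9 CPM (SD, n = 4), and the log2 fold change of −0.33 (SE 0.21, 95% interval −0.79 to 0.14) did not pass edgeR's test (adjusted p = 0.228). Without KO_BLM replicate 4 the gene was called lower (log2 fold change −0.53, edgeR adjusted p = 0.0439), as it was by limma-voom, which gives libraries unequal weights (−0.59, adjusted p = 0.0136); over all alternatives the adjusted p ran from 0.0136 to 0.466.

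Itgb8 was the scarcest member. Its locus (NCBI Gene 320910) is 119162803 to 119238276 of chromosome 12. It had 67, 72, 65 and 108 counts in wild-type libraries 1 to 4 and 39, 34, 38 and 53 counts in knockout libraries 1 to 4. As CPM these were 3.68, 3.57, 3.48 and 5.88 against 2.15, 1.90, 1.98 and 2.76. Replicate 4 was the highest library of each group, as for Itgav, and the groups did not overlap. The fall was 1.89-fold, with log2 −0.92 ± 0.24 (SE) for the change and an edgeR adjusted p of 0.0131, and without WT_BLM replicate 4 it was smaller but still called (−0.70, adjusted p = 0.0255).

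Levels of different genes were compared as deposited FPKM, which divide by gene length. In WT_BLM the order was Itgb1 at 224 ± 7.52 FPKM (SD, n = 4), Itgb5 at 87.9 ± 10.2, Itga5 at 72.9 ± 2.52, Itgb6 at 19.7 ± 3.59, Itgb3 at 17.0 ± 1.32, Itga8 at 11.2 ± 0.888, Itgav at 9.53 ± 1.03 and Itgb8 at 0.520 ± 0.129. The ranges of neighbours overlapped for Itgb5 and Itga5, for Itgb6 and Itgb3, and for Itga8 and Itgav. In KO_BLM the order was Itgb1 at 175 ± 6.17 FPKM, Itgb5 at 56.3 ± 4.51, Itga8 at 27.1 ± 5.72, Itga5 at 23.8 ± 0.864, Itgb6 at 16.8 ± 5.79, Itgb3 at 8.00 ± 0.337, Itgav at 6.03 ± 1.23 and Itgb8 at 0.294 ± 0.0593. There the ranges of Itga8 and Itga5 overlapped, as did those of Itga5 and Itgb6 and those of Itgb3 and Itgav. Itga8 thus stood below Itga5 in every wild-type library and beside it in the knockout libraries.

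The ratio of Itga5 to Itga8, both alpha chains of beta-1, needs no scaling between libraries. By FPKM it was 6.99, 6.24, 5.72 and 7.26 in wild-type libraries 1 to 4 and 0.698, 0.749, 1.08 and 1.13 in knockout libraries 1 to 4. The groups were far apart, and in KO_BLM replicates 1 and 2 the ratio was under 1. Among the beta partners of alpha-v other than beta-1, Itgb5 made up most of the summed FPKM in every library, at 66.2% to 73.3% in WT_BLM and 63.3% to 73.3% in KO_BLM. The share of Itgb3 was 12.1% to 16.2% in WT_BLM and 8.6% to 10.95% in KO_BLM, without overlap. Itgb6 took 14.1% to 19.1% in WT_BLM and 15.4%, 17.64%, 21.1% and 26.8% in knockout libraries 1 to 4, so its share in replicates 3 and 4 was above that of any wild-type library. Itgb8 stayed under every other chain, at 0.334% to 0.655% and 0.298% to 0.427%. These shares are of transcripts and say nothing of receptor on the cell surface.

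**Figure D2:**
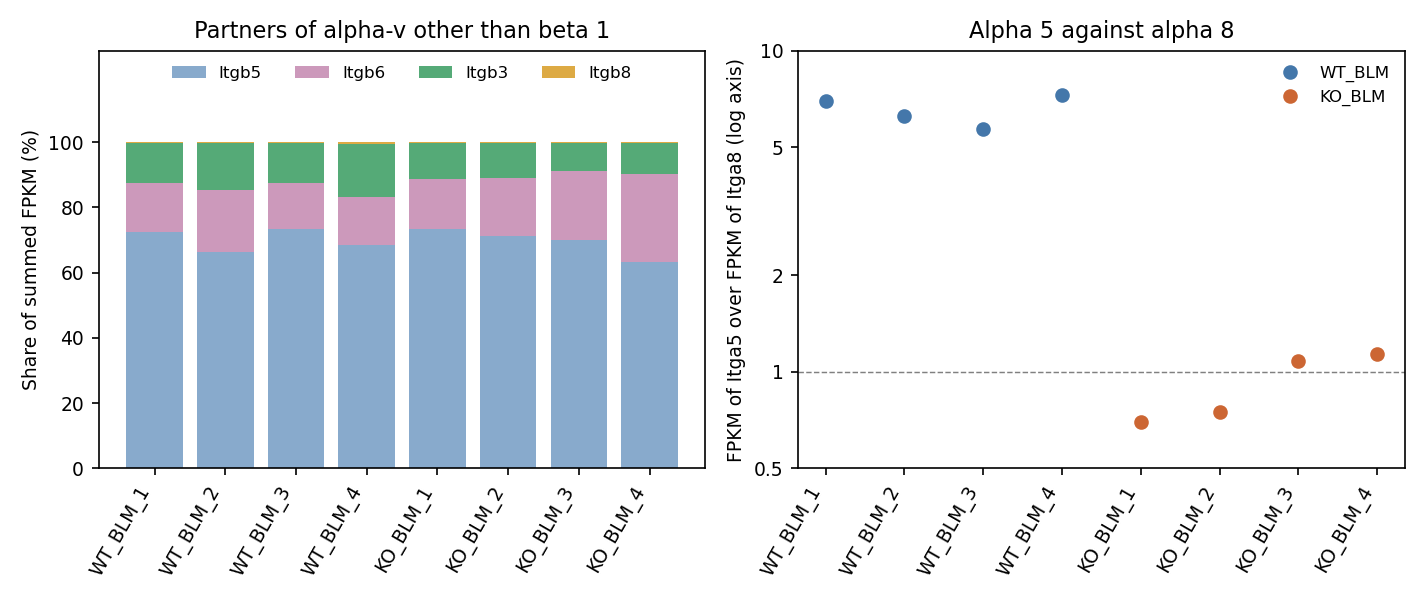
Left, share of the summed FPKM of Itgb5, Itgb6, Itgb3 and Itgb8 in each library, in percent; right, FPKM of Itga5 over that of Itga8 in each library, on a log axis, with a dashed line at 1. The Itgb3 share is smaller in all KO_BLM libraries, and the Itga5 to Itga8 ratio falls from 5.72 to 7.26 in WT_BLM to 0.698 to 1.13 in KO_BLM.

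Of 18 integrin subunits outside the RGD group, all tested, 3 rose, 4 fell and 11 were not called, with a median log2 fold change of 0.075. The counts in each direction were close to the shares over all tested genes, 20.7% higher and 20.8% lower. The genes that rose were the leukocyte chains Itgb7 (2.47-fold) and Itgal (1.77-fold) and the collagen receptor chain Itga1 (1.67-fold). Those that fell were Itgad (4.82-fold), the collagen receptor chain Itga11 (3.31-fold), the myeloid chain Itgam (2.91-fold) and the laminin receptor chain Itga3 (1.55-fold). Itgad was scarce, at 1.97 ± 1.13 and 0.402 ± 0.171 CPM (SD, n = 4), and its groups overlapped. Beside Itga2b, those not called were Itga2, Itga4, Itga6, Itga7, Itga9, Itga10, Itgae, Itgax, Itgb2 and Itgb4. Among these, the log2 fold change was 0.42 for Itga4, 0.11 for Itga6, 0.08 for Itga2 and 0.07 for Itga7, and −0.34 for Itgb2, the beta chain of leukocytes, −0.29 for Itga9 and −0.22 for Itgax. Of the 11, Itgb4 was called lower without WT_BLM replicate 4 (edgeR adjusted p = 0.0267), Itga10 higher without KO_BLM replicate 3 (0.0221) and Itgae higher without WT_BLM replicate 2 (0.0388). Other settings added calls as well. Of the 18 subunits, limma-voom called 4 higher and 6 lower, and edgeR with a replicate block 4 higher and 5 lower. Whether the RGD group differs from these genes was not tested.

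**Figure D3:**
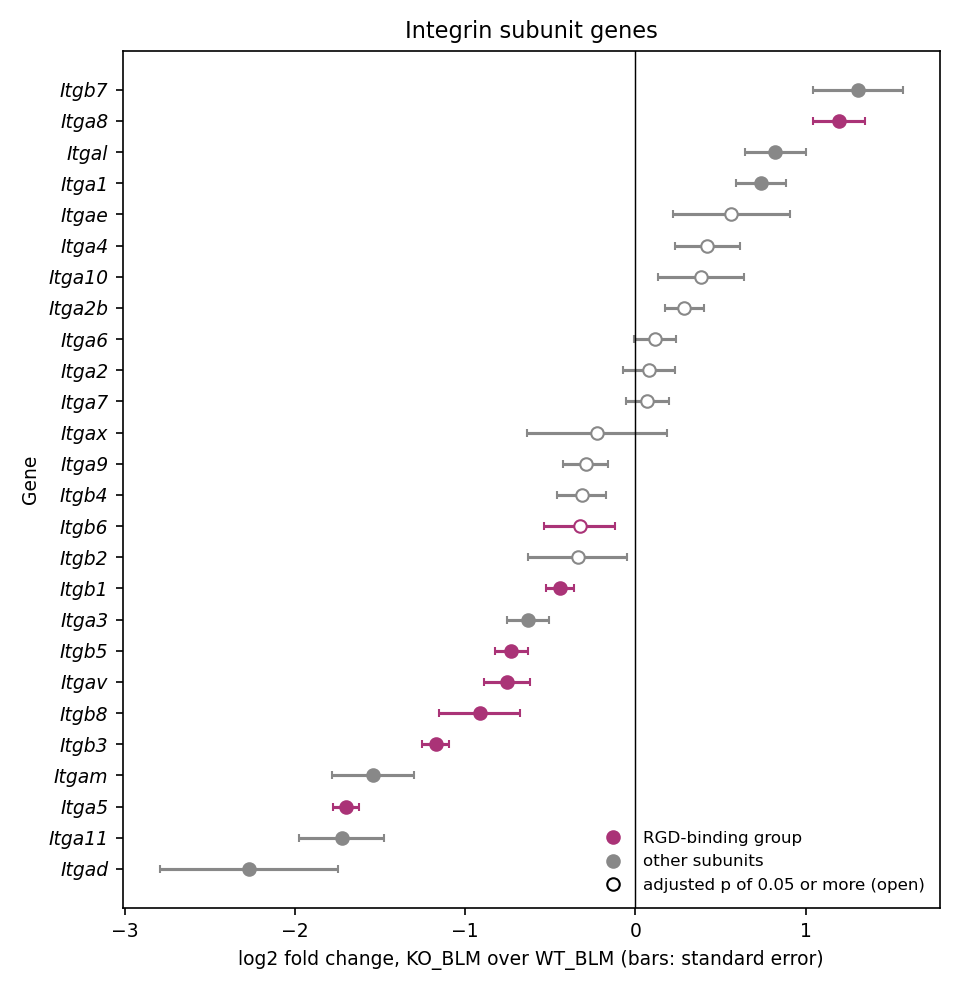
Log2 fold change of KO_BLM over WT_BLM with its standard error for the 26 integrin subunit genes, the 8 RGD-binding ones coloured; open points did not pass an adjusted p of 0.05. Of the coloured points 6 lie left of 0 and filled, Itga8 lies right, and Itgb6 is open.

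Genes for the matrix ligands of these receptors were lower for the most part. Of 16 listed, 15 were tested, and 9 fell, 4 rose and 2 were not called (median log2 fold change −0.52). Over all tested genes 20.8% were lower and 20.7% higher, so the 4 that rose are not far from that share. Fibronectin, Fn1, the ligand of the alpha-5 receptor, was at 5887, 4787, 5667 and 4582 CPM in wild-type libraries 1 to 4 and at 591, 585, 1234 and 961 CPM in knockout libraries 1 to 4, a 6.21-fold fall. Tnc, tenascin-C, fell 8.19-fold, Thbs1, a thrombospondin that also frees TGF-beta, 5.45-fold, the fibrillin Fbn1 3.33-fold and Ccn1 2.96-fold. Osteopontin, Spp1, was 4.99-fold lower (edgeR adjusted p = 0.0306), a call lost without KO_BLM replicate 2 (adjusted p = 0.0553) or any one WT_BLM library (0.0550 to 0.0876). The milk fat globule protein Mfge8 and periostin, Postn, were lower by 1.44-fold and 1.33-fold. The call of Postn was lost without WT_BLM replicate 1 (edgeR adjusted p = 0.0578) or KO_BLM replicate 3 (0.0526) or 4 (0.0520). Ibsp, with 20 counts in all WT_BLM libraries summed and 4 in KO_BLM, was too scarce to test.

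The ligands that rose were Edil3, Egfl6, Npnt and Vtn. Npnt encodes nephronectin, the main ligand of the alpha-8 receptor, and was at 440, 350.3, 454 and 590 CPM in wild-type libraries 1 to 4 and at 899, 859, 757 and 614 CPM in knockout libraries 1 to 4. The groups lay close at their edges, WT_BLM replicate 4 against KO_BLM replicate 4, but did not overlap (1.71-fold up, log2 0.77 ± 0.17 SE; adjusted p = 0.00581 by edgeR). Like Itga8, it was highest in KO_BLM replicates 1 and 2. Egfl6, which binds the alpha-8 receptor as well, rose 2.21-fold, from 27.4 ± 5.16 to 60.6 ± 4.10 CPM (SD, n = 4), and Edil3 2.27-fold. Vtn, vitronectin, rose 1.89-fold with overlapping groups (edgeR adjusted p = 0.0226), a call lost without WT_BLM replicate 4 (adjusted p = 0.0567) or KO_BLM replicate 1 (0.0604) or 2 (0.0664).

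Genes that store and release latent TGF-beta were mostly lower. Of 11 tested, 6 fell, 1 rose and 4 were not called (median log2 fold change −0.53), against 20.8% lower and 20.7% higher over all tested genes. The ligand gene Tgfb1 was at 139, 155, 142 and 109 CPM in wild-type libraries 1 to 4 and at 92.0, 93.7, 104 and 87.6 CPM in knockout libraries 1 to 4. Its groups did not overlap (1.44-fold lower, edgeR adjusted p = 0.00518). Tgfb2 was 1.46-fold lower (edgeR adjusted p = 0.0140), and Tgfb3, which like Tgfb1 carries an RGD site in its latency peptide, had a log2 fold change of −0.21 (SE 0.10, adjusted p = 0.107). Tgfb3 was called lower without WT_BLM replicate 4 (edgeR adjusted p = 0.0196) and by limma-voom (0.0418). Of the latent TGF-beta binding proteins, which tether the complex to matrix, Ltbp1 fell 1.85-fold and Ltbp2, which does not bind latent TGF-beta, 4.03-fold, while Ltbp4 rose 1.68-fold with overlapping groups. The protease genes Furin, which cleaves the TGF-beta precursor, and Mmp14 fell 2.29-fold and 3.49-fold.

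Genes known to be induced by TGF-beta fell almost throughout. Of 13 tested, 11 fell, 1 rose and 1 was not called (median log2 fold change −1.45), against 20.8% lower and 20.7% higher over all tested genes. Col1a1, a chain of type I collagen, was at 2583, 2188, 2759 and 2178 CPM in wild-type libraries 1 to 4 and at 433, 435, 418 and 478 CPM in knockout libraries 1 to 4, a 5.51-fold fall without overlap. Adam12 fell 6.92-fold, Ccn2 4.47-fold, Bhlhe40 3.55-fold, Tgfbi 2.73-fold and Pmepa1 2.47-fold. Smad7, the inhibitory SMAD, had a log2 fold change of 0.26 ± 0.20 (SE; adjusted p = 0.310 by edgeR). Tsc22d1 rose 1.17-fold (edgeR adjusted p = 0.0388), a call lost without any one of the WT_BLM libraries (adjusted p = 0.0591 to 0.0998) or without KO_BLM replicate 1 (0.0988) or 2 (0.108). Tgfb1, Tgfb3 and Ltbp2 each stand in 2 of the lists. So do Tnc, Postn and Col1a1, which are also activated fibroblast markers, and Itga2b, which is also a platelet marker. The lists are therefore not independent.

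Of 20 genes for the intracellular partners of integrins (talins, kindlins, the ILK complex and other regulators), 4 fell, none rose and 16 were not called (median log2 fold change −0.075). The 4 that fell are about the share called lower over all tested genes, 20.8%. The genes that fell were Dab2 (2.06-fold), an endocytic adaptor of beta chains, the actin crosslinker Flna (1.65-fold), Apbb1ip (1.42-fold) and Parva (1.26-fold). Only 2 were called without KO_BLM replicate 2: the calls of Apbb1ip (edgeR adjusted p = 0.0808) and Parva (0.0592) were lost. Apbb1ip was also not called without WT_BLM replicate 2 (0.0611) or KO_BLM replicate 1 (0.0636), nor Parva without WT_BLM replicate 1 (0.0532) or KO_BLM replicate 3 (0.0524). Tln1, a talin that activates integrins from inside, had a log2 fold change of −0.19 ± 0.13 (SE; adjusted p = 0.262 by edgeR), and the kindlin Fermt2 one of 0.12 (SE 0.13, adjusted p = 0.507). Fermt3, the kindlin of blood cells, was near the threshold (−0.49, SE 0.18, edgeR adjusted p = 0.0507). It was called lower without WT_BLM replicate 4 (adjusted p = 0.0357) or KO_BLM replicate 3 (0.00475) and with RLE factors (0.0457), DESeq2 (0.0248) and limma-voom (0.00479). Of 12 tested genes for integrin recycling and glycosylation, Arf6 (1.29-fold) and Rab25 (1.43-fold), GTPases of integrin recycling, rose, the glycosyltransferase Mgat5 fell 1.42-fold and 9 were not called (median log2 fold change −0.087), among them Hax1 at 0.30 and Snx17 at −0.24. Neither direction exceeded the shares over all tested genes, 20.7% higher and 20.8% lower. Hax1 was called higher without WT_BLM replicate 2 (edgeR adjusted p = 0.0461) or 3 (0.0388). Without WT_BLM replicate 3, 3 of that list were called higher and 2 lower.

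**Figure D4:**
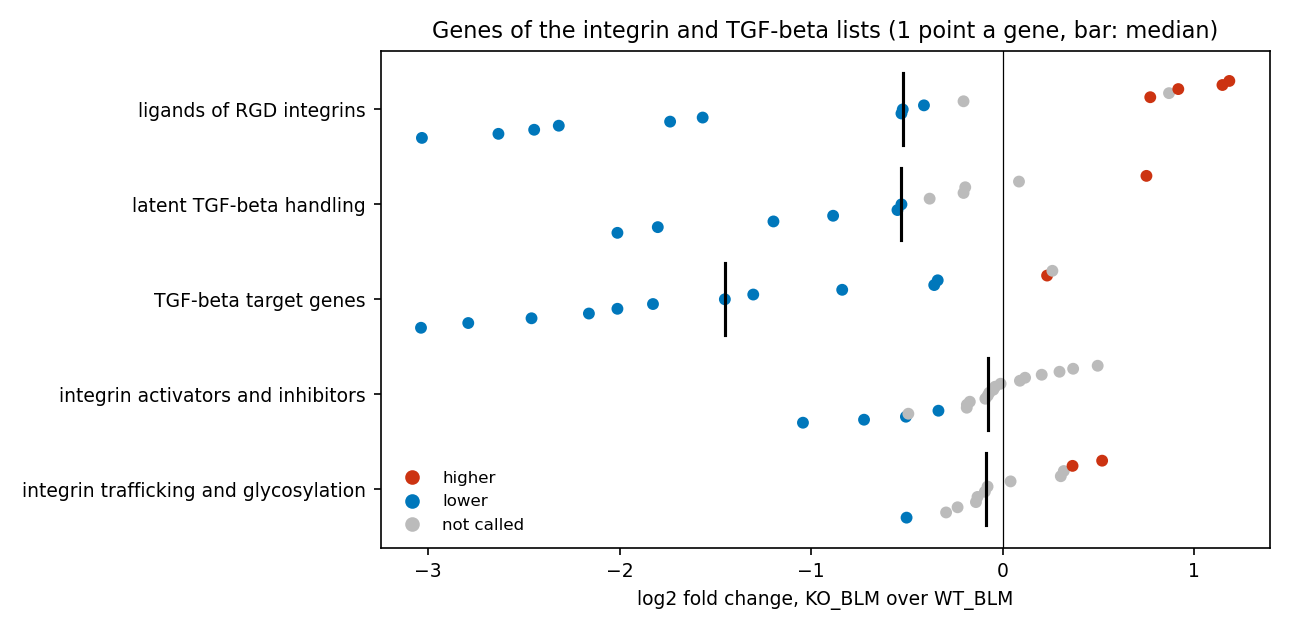
Log2 fold change of KO_BLM over WT_BLM for each tested gene of 5 lists (1 point a gene), coloured by edgeR call, with a black bar at the list's median. The median is −1.45 for TGF-beta target genes and −0.075 and −0.087 for the regulators and for trafficking and glycosylation.

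Markers of the cell types that carry these chains also moved between the genotypes. Each count of markers here and below stands against 20.7% higher and 20.8% lower over all tested genes. Itga8 is known from alveolar fibroblasts, pericytes and smooth muscle. Of 9 alveolar fibroblast markers 6 rose and none fell (Tcf21 3.22-fold, Inmt 4.52-fold and Ces1d 2.23-fold), with a summed level of 1497 to 2175 CPM in WT_BLM and 2794 to 4175 CPM in KO_BLM. That sum was 4175, 3905, 3028 and 2794 CPM in knockout libraries 1 to 4, the order of Itga8 in those libraries. The order was not particular to these markers. Summed type 2, endothelial and pericyte markers also fell in turn from knockout library 1 to 4. Type 2 markers, for one, summed to 35200, 32983, 25719 and 22670 CPM. The second principal component (13.1% of the variance) ordered the knockout libraries in the same way. Of 8 smooth muscle markers 4 fell and 1 rose (Acta2 and Tagln 2.37-fold and Des 1.74-fold lower; sums 1172 to 1293 and 522 to 711 CPM), and of 6 pericyte markers 3 fell and none rose (Cspg4 2.16-fold, Pdgfrb 1.77-fold and Kcnj8 1.72-fold lower; sums 613 to 706 and 320.5 to 549 CPM). The smooth muscle marker that rose was Lmod1 (1.40-fold, edgeR adjusted p = 0.0399). It was not called without WT_BLM replicate 1 (adjusted p = 0.104) or 4 (0.0816) or without KO_BLM replicate 1 (0.0741), 2 (0.106) or 4 (0.0643), while without KO_BLM replicate 3 the list had 3 called higher. Without KO_BLM replicate 4, 2 pericyte markers were called higher. Relative to the mean log2 CPM of the alveolar fibroblast markers, Itga8 was at −0.77 ± 0.13 in WT_BLM and −0.50 ± 0.18 in KO_BLM (SD, n = 4). The difference of 0.27 gave p = 0.0857 in a two-sided exact permutation test, also 0.0857 after adjustment over the 2 relative levels tested; the smallest p the design allows is 0.0286. With the median of the markers in place of their mean the difference was 0.932 (exact permutation p = 0.0286).

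For Itgb6, the epithelial markers themselves were mixed. Of 10, 5 rose (Ehf 2.03-fold, Elf3 1.84-fold and Nkx2-1 1.68-fold among them), Krt18 fell 1.67-fold and 4 were not called, with a summed level of 1738 to 2094 CPM in WT_BLM and 1879 to 2070.0 CPM in KO_BLM. Among alveolar cells, 8 of 9 type 2 markers rose and none fell (Sftpa1 3.85-fold, Lamp3 3.52-fold and Etv5 2.24-fold higher). Of 7 type 1 markers 2 rose (Rtkn2 2.41-fold and Hopx 1.32-fold), against 20.7% of all tested genes. The other 5 were not called, among them Pdpn with a log2 fold change of −0.44 (edgeR adjusted p = 0.0634). Pdpn was called lower without KO_BLM replicate 3 (edgeR adjusted p = 0.0193), by DESeq2 (0.0356) and by limma-voom (0.00604). Of 7 markers of the transitional state 6 fell (Sfn 2.63-fold, Plaur 2.23-fold, Krt7 1.74-fold and Krt8 1.60-fold). The rise of Hopx was not called without WT_BLM replicate 2 or 3 or any one KO_BLM library (edgeR adjusted p = 0.0518 to 0.0872). The transitional markers summed to 1003, 1022, 1249 and 1276 CPM in knockout libraries 1 to 4, so replicates 1 and 2 were below 3 and 4 there as for Itgb6, and to 1784 to 2234 CPM in WT_BLM. The same split was seen in the summed macrophage and activated fibroblast markers and in the summed RGD ligands. The ligands were at 3168, 3107, 5189 and 5028 CPM in knockout libraries 1 to 4. Replicates 1 and 2 also lay apart from 3 and 4 on the second principal component. A link of Itgb6 to any of these lists was not tested. Relative to the mean log2 CPM of the epithelial markers, Itgb6 was at 0.38, 0.88, 0.36 and −0.028 in wild-type libraries 1 to 4 and at −0.66, −0.59, 0.082 and 0.18 in knockout libraries 1 to 4. The groups overlapped, and the difference of −0.64 gave an exact permutation p of 0.0857 (two-sided; adjusted 0.0857).

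**Figure D5:**
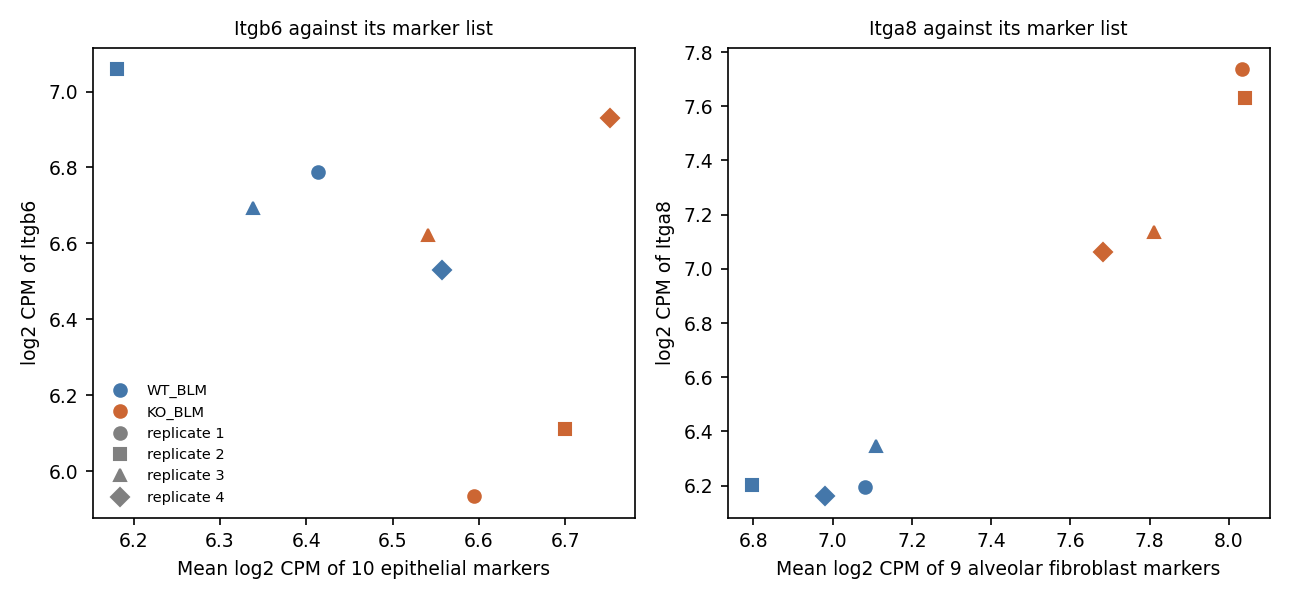
Log2 CPM of Itgb6 against the mean log2 CPM of 10 epithelial markers (left), and of Itga8 against that of 9 alveolar fibroblast markers (right), 1 point a library, with colour for the group and shape for the replicate number. KO_BLM replicates 1 and 2 are the lowest in Itgb6 and the highest in Itga8.

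The other marker lists stand beside the chains that more cell types carry. Over all tested genes 20.7% were higher and 20.8% lower. All 8 activated fibroblast markers fell (Cthrc1 7.80-fold and Grem1 28.6-fold; sums 5554 to 6369.5 CPM in WT_BLM and 1806 to 2167 CPM in KO_BLM). Of 8 macrophage markers 7 fell (C1qc 3.19-fold, C1qa 2.87-fold and Mrc1 2.76-fold), while Lyz2, the most abundant, rose 1.70-fold, and the list summed to 6084 to 7134 CPM in WT_BLM and 7139 to 9895 CPM in KO_BLM. That sum mostly reflects Lyz2, which alone gave 4681 of 6704 CPM in WT_BLM replicate 1 and 6619 of 7139 CPM in KO_BLM replicate 1. The higher sum is therefore no sign that the other 7 markers rose. Of 8 endothelial markers 5 rose (Kdr 1.89-fold, Cldn5 1.59-fold and Tie1 1.43-fold; sums 2105 to 2685 and 2660.1 to 4169 CPM), but 2 were called without WT_BLM replicate 3 (Cldn5 not among them, edgeR adjusted p = 0.0539) and 3 without WT_BLM replicate 1 or KO_BLM replicate 1 or 2. Of 6 dendritic cell markers 3 rose (Clec9a 3.81-fold, Xcr1 3.54-fold and Zbtb46 1.71-fold; sums 37.1 to 125 and 126 to 141 CPM), 5 without WT_BLM replicate 2. Of 7 T cell markers 6 rose (Cd8a 3.55-fold, Cd28 2.78-fold and Cd2 2.70-fold; sums 29.2 to 55.6 and 81.6 to 142 CPM). Of 4 mesothelial markers Msln fell 1.97-fold and Upk3b rose 2.40-fold (sums 283 to 467 and 268 to 397 CPM), the latter not called without WT_BLM replicate 3 (edgeR adjusted p = 0.0617) or KO_BLM replicate 1 (0.0589); Lrrn4 had a log2 fold change of 0.87 (adjusted p = 0.169) and was called higher without WT_BLM replicate 2 (0.00260). No marker of any list was at 0 in a library. The part of these cells in the levels of the integrin genes was not tested.

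Genes with the profile most like each member over the 8 libraries were sought among 13812 others, by the root mean square difference of log2 CPM after centring each gene on its mean. For Itga5 these were the fibrillin Fbn1 (difference 0.075), Mark1 (0.089) and Dbn1 (0.098), and for Itgb3 Traip (0.094), smooth muscle actin Acta2 (0.096) and the lamin Lmna (0.097). Itga8 was nearest to Mturn (0.086), Mtcl1 (0.096) and the growth factor Bmp6 (0.11). Itgb1 had the closest neighbours, Cltb (0.040), Rab3gap2 (0.048) and Bag3 (0.052). The nearest to Itgav were Ppa1 (0.062), Spred1 (0.073) and Serpinb8 (0.085), to Itgb5 Dsn1 (0.072), Abtb2 (0.078) and Dnm1 (0.080), and to Itgb8 Slc30a4 (0.089), Txnrd1 (0.090) and Nudt4 (0.0997). For Itgb6 they were the leukocyte tetraspanin Cd53 (0.11), the caspase Casp4 (0.12) and Iqgap2 (0.13), none of which was called. Casp4 (edgeR adjusted p = 0.0341) and Iqgap2 (0.0294) were called lower without KO_BLM replicate 4, as Itgb6 was. With 6118 genes called between the groups, a like profile over 8 libraries includes the difference between the genotypes and is only a description.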

How the data were processed

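The 8 libraries were grouped and numbered by their titles, and count columns carrying PHT2 (an alias of SLC15A3) were taken as the knockout libraries of the same number. TRIzol extraction and the stranded TruSeq mRNA kit are stated per the labels' protocols. The deposited table of the authors gives, by gene symbol, raw read counts and FPKM values. The deposited FPKM all equalled (100% of nonzero values, relative tolerance 1e-06) the count divided by the library total and 1 length per gene, so they served for levels per length and for alternatives. Trimmomatic, HTSeq, Cufflinks, DESeq and the mm10 build appear in the submitters' processing notes. Aligner and annotation: not given in the sources used here.

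Counts were tested with edgeR 4.0.16 in R 4.3.3: genes were kept by filterByExpr (at least 10 counts, 15 in total), scaled by TMM and fitted by robust glmQLFit, with the quasi-likelihood F test and Benjamini-Hochberg adjustment over 14746 genes at 0.05. A standard error is the fold change (log2) divided by the root of F. The log2 CPM used for marker means and profiles have a prior count of 2. The biological coefficient of variation was 16.6%. Libraries within a group differed beyond sampling noise (12 pairs, chi-square per degree of freedom 7.48 to 58.1). The steps were tested on simulated data with far fewer genes changed than were called here, so that test does not cover data like these.

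The members and the gene lists were chosen with earlier results of these data known. Named were the members, all other integrin subunits, from each list up to 5 genes (markers 3) of smallest p and, except for markers, those that changed by 1 or more on the log2 scale, and the 3 nearest profiles per member. Npnt, Vtn, Mfge8, Postn, Tgfb2, Tgfb3, Ltbp4, Tsc22d1, Lmod1, Smad7, Tln1, Fermt2, Lyz2, Krt8, Krt18, Pf4 and Gp1bb fall outside that rule and were chosen after their values were seen. Alternatives were RLE factors, library totals, no and a strict (1 CPM in 4 libraries) filter, DESeq2 1.42.0, limma 3.58.1 (voom with weights; log2(FPKM + 1), also at a mean of at least 1 FPKM, and log2(FPKM + 0.1)), a replicate block, and each library left out. A gene that the rule would name is not reported here.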

Additional observations from a re-analysis of the deposited data

Results flagged for a closer look

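The Itgb8 level of 5.88 CPM in WT_BLM replicate 4 lay apart from the other 3 wild-type libraries, at 3.48 to 3.68 CPM. Its gap to the nearest library was 0.916 of the group's range, above the critical value of Dixon's test for 4 samples. Among 20 groups checked (the members and both relative levels in each genotype) it was the 1 that passed, and chance flags about 1 in 20. Among wild-type libraries Itgav, Itga5, Itgb1 and Itgb3 were also highest in that one, at 119, 357, 1035 and 112 CPM.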

How the results depend on the processing

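All 7 calls among the members were kept in every alternative that tested the gene, with Itgb8 not tested at a mean of at least 1 FPKM, and Itgb6 was called in 2. The log2 fold changes of the members ranged from −1.73 to −1.57 for Itga5, from 1.07 to 1.29 for Itga8, from −0.88 to −0.59 for Itgav, from −0.48 to −0.35 for Itgb1, from −1.21 to −0.998 for Itgb3, from −0.81 to −0.63 for Itgb5, from −0.59 to −0.19 for Itgb6 and from −1.05 to −0.23 for Itgb8, the last on the log2(FPKM + 1) scale, which understates low genes. Library totals alone gave 62.7% of calls higher against 50.0% with TMM factors and a median log2 fold change over all genes of 0.088. Genes called numbered 6118, and 4494 to 5853 with 1 library left out. The Itga8 level relative to its markers passed with their median (0.932, exact permutation p = 0.0286). It ranged from 0.199 to 0.325 with 1 library left out, and that of Itgb6 from −0.784 to −0.482. Neither passed with 1 library left out (exact permutation p from 0.0571 to 0.171). Of the integrin regulators, limma-voom called 2 higher and 5 lower and limma on log2(FPKM + 0.1) called 2 lower, against 4 lower; of the type 1 cell markers, limma-voom called 3 higher and 1 lower and DESeq2 2 higher and 1 lower, against 2 higher; without a filter, 1 mesothelial marker was called against 2. Itga2, not called, changed sign by limma-voom (−0.013) and ranged from −0.00624 (without KO_BLM replicate 1) to 0.20 with 1 library left out, and Itga7, not called either, from −0.027 (without KO_BLM replicate 4) to 0.15. Same-numbered libraries did not deviate together (r from −0.092 to 0.089), which shows no pairing by number but cannot exclude it. With the replicate block 5702 genes were called, the 7 members among them. The relative levels then gave −0.64 (exact sign-flip p = 0.25) for Itgb6 and 0.27 (exact sign-flip p = 0.125) for Itga8. The smallest p that the sign-flip test can give here is 0.125. Depth limits Itgb8 most, with 34 to 108 counts a library.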
